A study of Mus musculus with 12 samples.

Results

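When germ cells of the fetal testis commit to the male path, they express a large set of genes more strongly than ovarian germ cells do. Many of these were also higher in DKO ovaries than in control ovaries. In DKO ovaries, XX germ cells were meant to lack both *Smad4* and *Stra8*. The genes described here are those of that set whose level in DKO ovaries covered less than 50% of the way from control ovaries to testes. From a published list of 386 genes that E13.5 male germ cells express more strongly than female ones, chosen by the study on other arrays with and without germ cells, 374 were found on the present arrays and 13 of these, among them Nanos, Piwi, Tudor, Nodal and core pluripotency genes, were set aside by name. A gene was kept when its mean level on the log2 scale was at least 1 higher in control testes than in control ovaries, which held for 252 genes, and when the rise in DKO ovaries was less than 50% of that testis difference. This left 99 genes, out of 18853 genes tested on the arrays, while the other 153 genes of the 252 were raised by at least 50%. Raised means here higher than in control ovaries at the same stage. With 1 stage, a rise and a level kept from earlier cannot be told apart. Because the differences of control testes and of DKO ovaries from control ovaries chose the 99 genes, both are given below as a description, with no test.

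Gonads were collected at E14.5 from embryos whose mothers received tamoxifen on E9.5 and on E10.5, and the RNA of 1 pair of gonads per sample went onto each of 12 single-colour Agilent arrays, 3 per group, where a spot is the brighter the more labelled RNA its probe holds. All 3 control testes were Smad4 Flox/+ with StellaMerCreMer and Stra8+/-. Control ovary 1 had that same genotype, control ovary 2 was Smad4 Flox/+ and Stra8+/- without the Cre transgene, and control ovary 3 was Smad4 Flox/Flox and Stra8+/- without it. *Smad4 (Stella)* ovaries were Smad4 Flox/Flox with StellaMerCreMer and Stra8+/-, and DKO ovaries were Smad4 Flox/Flox with StellaMerCreMer and Stra8-/-. All groups thus carried at least 1 mutant *Stra8* allele and had been exposed to tamoxifen, and ovaries that lack *Stra8* alone were not analysed here. The Stella promoter drives the inducible Cre in germ cells, so recombination is limited to them and can be incomplete, and the mice were of mixed background.

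SMAD4 is the common mediator of TGF-β, activin, Nodal and BMP signals in the nucleus, and STRA8 is the retinoic acid target needed for germ cells of the fetal ovary to enter meiosis. In the fetal testis, germ cells instead stop dividing and become prospermatogonia, which express genes for small RNA defence of the genome and, early, transcripts whose proteins are known mainly from later spermatogenesis, such as those of the sperm tail. Many other genes in the list are textbook genes of blood, muscle, nerve or epithelium, whose place in germ cells is not settled by these arrays of whole gonads.

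From 58.8% (control ovary 1) to 70.6% (control ovary 2) of probes were well above background, and 0 spots were saturated. A level below is the processed signal on the log2 scale relative to the 75th percentile of its array, so that 0 marks that percentile. The lowest level well above background ranged from -6.19 in DKO ovary 2 to -5.14 in control ovary 1. In DKO ovary 3 it was -5.22, with 60.4% of probes well above background. That array had 0.456% outlier spots, against 0.106% to 0.254% on the other arrays. *Stra8* lay between 6.16 and 6.71 in control ovaries, between 5.28 and 5.61 in DKO ovaries and between -2.98 and -2.32 in testes, so its mRNA was lower but present in DKO ovaries, and where its probe lies relative to the mutated part was not determined. *Smad4* lay between 1.96 and 2.42 on all 12 arrays, which in whole gonads does not check a deletion limited to germ cells. Of 8 Sertoli cell markers and 5 fetal Leydig cell markers tested, every one was higher on all 3 testis arrays than on any control ovary array, and 6 of 6 pregranulosa cell markers were lower. Control ovary 3 stood apart, since 6 of 7 skeletal muscle markers were highest there among all 12 arrays, by up to 6.61 on the log2 scale over the mean of the other control ovaries.

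The presumed start regions of the genes can be read from RefSeq, which holds a promoter window for 67 of the 99 genes. As this is 67.7% of them and less than 80%, no share over the 99 genes was drawn from these windows. A search of the 250 bases before the start, on both strands, which read alike for these palindromes, looked for CACGTG, the E-box bound by factors of the MYC and USF type, and for TGACGTCA, the cAMP response element. CACGTG was found for 13 and TGACGTCA for 4 of the 67 genes with a window, the rest of the 99 not being searched. Of all 32851 windows, 6.02% held CACGTG and 1.55% held TGACGTCA. The counts are not compared with these shares, since the genes with a window may differ from those without.

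The windows of 4 genes described below are shown 5′ to 3′ on the strand of the gene, with the matched letters in capitals, because these genes hold a match and stand for different behaviours: *Syce1l* with a testis difference among the 12 largest, *Fgf21* with the lowest level in DKO ovaries relative to control ovaries, *Dgka* with little spread among ovaries, and the cell cycle inhibitor *Cdkn2b*. On build GRCm38.p6 they are chr8:113642963-113643212, plus strand for *Syce1l*, chr7:45615491-45615740, minus strand for *Fgf21*, chr10:128737613-128737862, minus strand for *Dgka*, whose table entry holds several starts, and chr4:89311033-89311282, minus strand for *Cdkn2b*. The capitals begin 40, 50, 17 and 46 bases before the start, in that order. Such a match is a description of the letters and no evidence of binding.
Syce1l: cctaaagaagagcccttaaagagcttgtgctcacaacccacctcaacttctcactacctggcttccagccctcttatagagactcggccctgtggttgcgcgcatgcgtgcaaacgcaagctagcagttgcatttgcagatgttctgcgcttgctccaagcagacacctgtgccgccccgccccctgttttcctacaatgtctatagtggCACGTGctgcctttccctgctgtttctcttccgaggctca
Fgf21: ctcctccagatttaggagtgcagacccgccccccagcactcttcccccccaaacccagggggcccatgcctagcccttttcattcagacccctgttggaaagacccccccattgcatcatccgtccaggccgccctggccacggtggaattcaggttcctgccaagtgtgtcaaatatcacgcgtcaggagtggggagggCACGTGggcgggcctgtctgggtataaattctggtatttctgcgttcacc
Dgka: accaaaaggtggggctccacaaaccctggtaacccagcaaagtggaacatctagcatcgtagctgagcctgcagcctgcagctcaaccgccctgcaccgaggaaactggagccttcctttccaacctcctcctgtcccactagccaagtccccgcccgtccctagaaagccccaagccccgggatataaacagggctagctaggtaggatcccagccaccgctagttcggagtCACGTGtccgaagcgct
Cdkn2b: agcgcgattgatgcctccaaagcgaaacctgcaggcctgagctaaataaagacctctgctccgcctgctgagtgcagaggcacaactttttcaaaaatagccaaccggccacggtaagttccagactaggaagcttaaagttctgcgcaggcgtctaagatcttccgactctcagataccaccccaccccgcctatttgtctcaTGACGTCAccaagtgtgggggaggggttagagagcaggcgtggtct

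Across the 99 genes, the difference of control testes from control ovaries ranged from 1.03 to 6.25 with a median of 2.07, and that of DKO ovaries from -0.99 to 2.21 with a median of 0.55, while the median over all genes tested was 0.02 and 0.00. The median level of the 99 genes was -1.49 in control testes, -4.26 in control ovaries, -4.43 in *Smad4 (Stella)* ovaries and -3.62 in DKO ovaries. The rule separates them only by degree from the 153 others. Every DKO array was above every control ovary array for 32 of the 99 genes, against 16.1% of all genes tested, although this contrast chose them, and the DKO mean was above the control ovary mean for 87 of them. Both counts rest on values that the rule used, so they describe the list and do not test induction. The genes are called here genes raised by less than 50%, and not genes that are not induced. By the share of the testis difference reached in DKO ovaries, taken from the averages over all probes that the rule used and not from the filtered probes behind the levels above, 14 genes were below 0%, 30 between 0% and 25%, 36 between 25% and 40%, and 19 between 40% and 50%. Just beyond the line, 21 of the other 153 genes lay between 50% and 60%.

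Just inside the 50% line were *Polr1e* at 49.5%, *Prss29* at 49.4% and *4930415O20Rik* at 49.2%, and just outside it *Dbx2* at 50.3%, *1700012B07Rik* at 50.5% and *Fsd1* at 51.7%. At the other threshold, the smallest testis differences kept were 1.03 for *Mtmr14*, 1.06 for *1700001L19Rik* and 1.07 for *Ddx25*, and the largest left out were 0.99 for *Il12rb1*, 0.98 for *Mrpl23* and 0.98 for *Ripk4*.

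**Figure D1:**
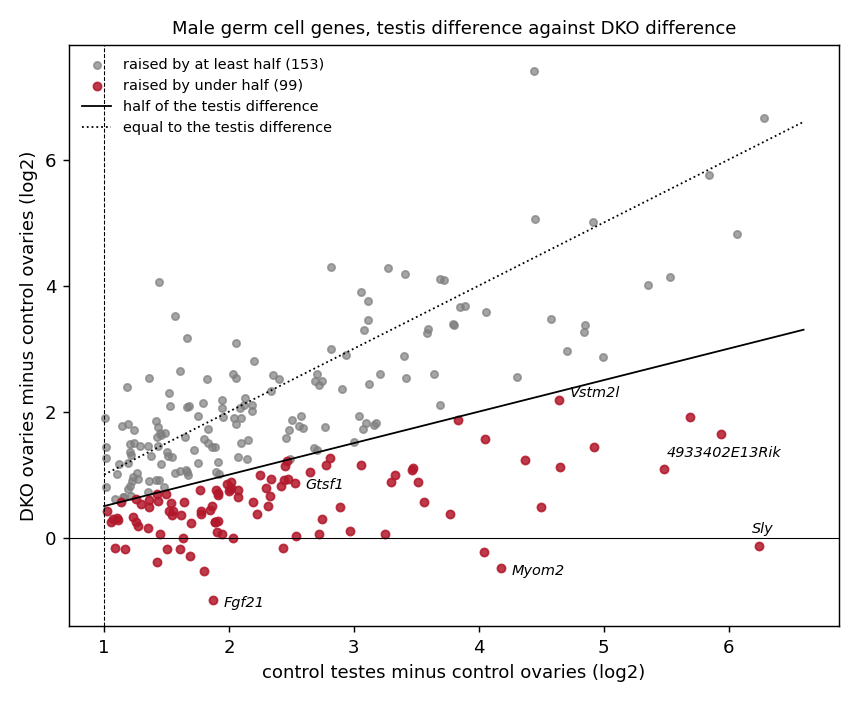
Difference of DKO ovaries from control ovaries against that of control testes from control ovaries, both log2 of group means, for the 252 male germ cell genes with a testis difference of at least 1 (dashed line). The 99 genes raised by less than 50% (red) lie below the solid line and the 153 others (grey) above it, with no gap between them, and *Sly* has the largest testis difference of the 99, 6.25.

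Detection limits what these low levels can show. All 99 genes were well above background on all 3 testis arrays, which was enough to pass the filter on dim probes. Many also met that filter in an ovary group, as the counts below show, and the rest passed through the testes alone. In control ovaries, 59 genes were well above background on all 3 arrays, 20 on 1 or 2 arrays and 20 on none, and for these last 20 the testis fold is only a lower bound. With them at their bounds, the median testis difference of the 99 genes was 1.91. In DKO ovaries the counts were 64, 28 and 7, and in *Smad4 (Stella)* ovaries 62, 16 and 21. The arrays differ in their lowest level well above background, so these counts are not compared between groups. The 6 genes *2310043M15Rik*, *Efcab6*, *Helt*, *Gzma*, *Serpinb5* and *Sly* failed to rise well above background in all 9 ovaries, so that their ovary groups cannot be ranked. In bulk samples, fewer cells of a type and less RNA per cell cannot be told apart.

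The 3 DKO ovaries did not respond alike. Measured from the mean of the control ovaries, the median gene of the 99 was higher by 0.91 in DKO ovary 1, 0.55 in DKO ovary 2 and 0.29 in DKO ovary 3, which was 43.5%, 21.7% and 13.2% of the testis difference. Single arrays reached 50% of the testis difference for 43, 14 and 3 of the 99 genes, in that order, and 46 genes reached it on no DKO array, 46 on 1, 7 on 2 and 0 on all 3. DKO ovary 1 held the highest of the 3 values for 71 genes, and DKO ovary 3 the lowest for 53. The order was the same among the 153 genes raised by at least 50%, with a median of 104%, 93.8% and 70.6% of the testis difference in DKO ovaries 1, 2 and 3. Without DKO ovary 1 the rule kept 114 genes, and without DKO ovary 3 it kept 86. Some macrophage markers also set DKO ovary 1 apart. *Adgre1* read 1.82 there, against 0.31 and 0.17 in DKO ovaries 2 and 3, and *Lyz2* read 1.01, against -0.76 and -1.83. These and *Cd68* were highest there among all arrays, but *Csf1r*, *Aif1* and *Mrc1* were not. The summed level of 6 macrophage markers ranged from 2.78 to 7.01 in DKO ovaries and from 2.51 to 3.30 in control ovaries. Its part in the values of the 99 genes was not tested. DKO ovaries 1 and 2 shared a slide with control ovaries 2 and 3, and DKO ovary 3 shared one with the *Smad4 (Stella)* ovaries. Thus DKO ovaries 1 and 2 differed within a slide. For the place of DKO ovary 3, slide, array quality and animal cannot be told apart.

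**Figure D2:**
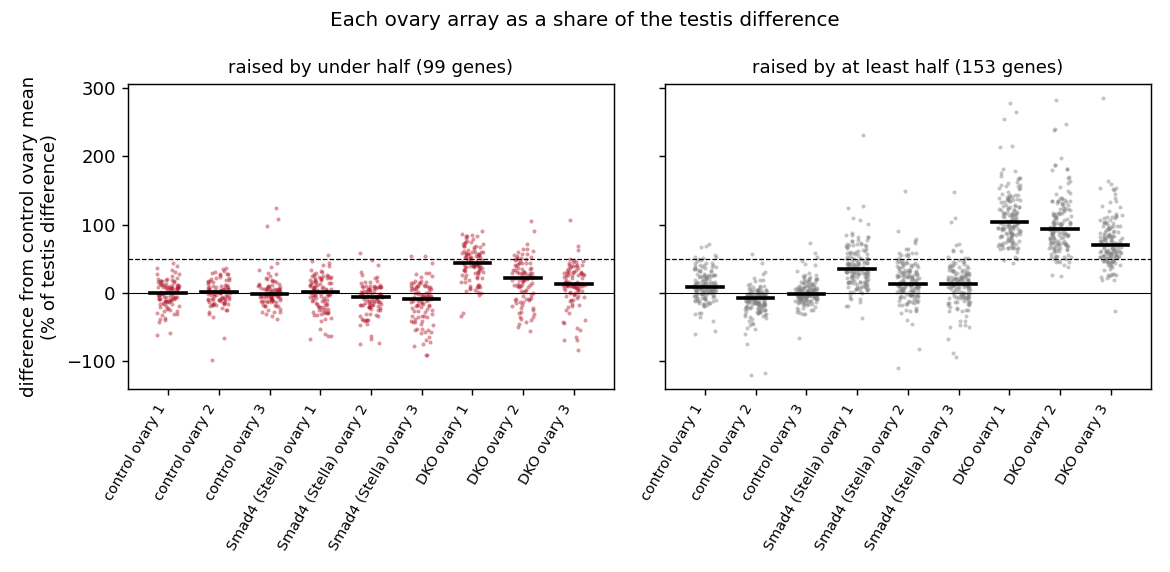
Difference of each ovary array from the mean of the control ovaries, as a percentage of the testis difference of the same gene, for the 99 genes raised by less than 50% (left) and the 153 others (right). Each point is a gene, thick bars are medians, and the dashed line is 50%. The medians of the 99 genes fall from 43.5% in DKO ovary 1 to 13.2% in DKO ovary 3 and lie near 0% in *Smad4 (Stella)* ovaries.

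Most genes with the largest testis differences lay at or near background in control ovaries. *4933402E13Rik*, an X-linked gene, read 0.26, 0.15 and -0.39 in control testes and -4.49, -6.59 and -6.71 in control ovaries, all on the log2 scale. It reached -3.51, -3.98 and -5.34 in the DKO ovaries, and *Smad4 (Stella)* ovaries read -5.86, -5.71 and -5.11, so the DKO arrays were spread over the range between and overlapped with the control ovaries. *Snorc*, a proteoglycan gene known from cartilage, stood at -1.48, -1.90 and -1.65 in testes and -7.28, -6.92 and -7.90 in control ovaries, at least 15-fold higher in testes, and at -3.12, -6.11 and -7.11 in DKO ovaries. Here DKO ovary 1 alone was well above background. The same array alone was above background for *Trim61*, of the tripartite motif family, at -5.25, -7.60 and -7.12 in DKO ovaries against -7.34, -8.19 and -7.72 in control ovaries and -2.83, -2.03 and -1.93 in testes. *Syce1l*, named for its likeness to a synaptonemal complex protein, showed it too, with testes at -3.49, -2.43 and -2.97, DKO ovaries at -5.07, -7.33 and -6.95 and control ovaries at -7.46, -8.24 and -7.95. The bound on the testis fold was at least 9.97-fold for *Trim61* and at least 6.15-fold for *Syce1l*. *2310043M15Rik* was at least 6.08-fold higher in testes, at -3.70, -3.06 and -2.18, with no ovary array above background.

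*Vstm2l* and *Pmaip1* were measured well above background on all 12 arrays and show a partial difference. For *Vstm2l*, control testes read 1.72, 1.75 and 2.52, control ovaries read -3.53, -2.52 and -1.87, *Smad4 (Stella)* ovaries read -2.05, -2.40 and -2.40 and DKO ovaries read -0.16, -0.27 and -0.95. The groups did not overlap between DKO and control ovaries, and the DKO difference of 2.18 was 47% of the testis difference of 4.64. *Pmaip1* encodes NOXA, which promotes apoptosis by binding antiapoptotic BCL-family proteins. For *Pmaip1*, control testes read 2.29, 1.96 and 3.06, control ovaries read -2.22, -1.78 and -1.80, *Smad4 (Stella)* ovaries read -1.71, -2.26 and -2.18 and DKO ovaries read -0.79, -0.50 and -0.80. Its DKO arrays lay close together, 2.36-fold above the control ovaries, while the testes were 20.7-fold above them.

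**Figure D3:**
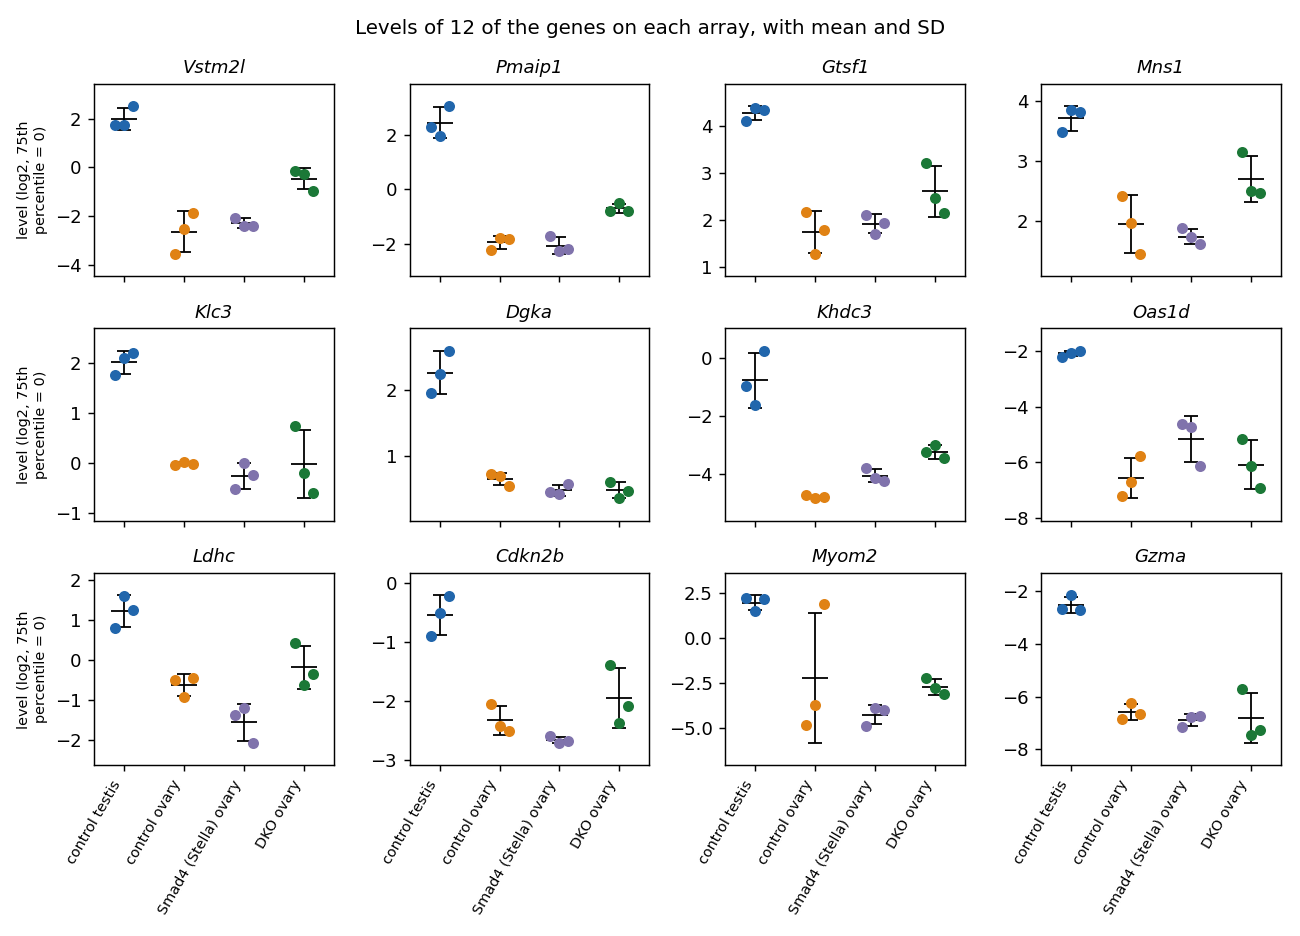
Level of 12 of the 99 genes on each array, as log2 signal relative to the 75th percentile of the array, with a separate vertical scale for each gene. Points are arrays 1, 2 and 3 of a group from left to right, and black bars show mean and SD (n = 3). *Pmaip1*, *Vstm2l* and *Khdc3* are higher in all 3 DKO ovaries than in control ovaries but stay far below the testes. In DKO ovaries, *Dgka* stays near the control ovaries, and *Klc3* does so in the mean only, with its arrays above and below them. *Myom2* is high in control ovary 3.

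Of 7 genes of germ granules and small RNAs with a testis difference of at least 1, 3 were among the 99 and 4 among those raised by at least 50%, the Piwi and Tudor genes having been set aside by name. *Gtsf1* encodes a zinc finger protein that works with PIWI proteins in silencing. For *Gtsf1*, control testes read 4.1, 4.37 and 4.34, control ovaries read 2.17, 1.28 and 1.79, *Smad4 (Stella)* ovaries read 2.11, 1.70 and 1.94 and DKO ovaries read 3.20, 2.47 and 2.16. DKO ovaries 1 and 2 were above the control ovaries and DKO ovary 3 within their range, and the DKO mean was higher by 0.86 against 2.53 in testes. *Exd1*, of the piRNA biogenesis machinery, stood at 1.60, 1.77 and 2.18 in testes, 0.90, 0.01 and -0.01 in control ovaries and 1.36, 0.35 and 0.48 in DKO ovaries, and the ovary groups overlapped. *Ddx25*, an RNA helicase of male germ cells, stood at 1.87, 2.32 and 2.26 in testes, whereas control ovaries were at 1.30, 0.94 and 1.01 and DKO ovaries at 1.75, 1.0 and 1.40, again with overlap. In *Smad4 (Stella)* ovaries, *Ddx25* was at 0.83, 0.72 and 0.52, below every control ovary, with an adjusted p of 0.298 in limma.

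Of the genes known from oocytes and early embryos, 2 were among the 99 and 4 among the others. *Khdc3* encodes FILIA, part of the maternal complex of the oocyte cortex. For *Khdc3*, control testes read -0.95, -1.61 and 0.27, control ovaries read -4.76, -4.85 and -4.83, *Smad4 (Stella)* ovaries read -3.82, -4.14 and -4.24 and DKO ovaries read -3.25, -3.02 and -3.48. Both mutant groups were above every control ovary, by 1.56 in the DKO mean and 0.74 in the *Smad4 (Stella)* mean (limma adjusted p = 0.289), whereas the testes were 4.05 above. *Oas1d* belongs to the oligoadenylate synthetase family. For *Oas1d*, control testes read -2.20, -2.05 and -2.0, control ovaries read -7.22, -6.73 and -5.79, *Smad4 (Stella)* ovaries read -4.63, -4.73 and -6.12 and DKO ovaries read -5.16, -6.15 and -6.95. Its testes exceeded the control ovaries at least 11.3-fold, no control ovary array being above background, and *Smad4 (Stella)* ovaries 1 and 2 but not 3 were above background.

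Genes of cilia and of the sperm tail made up 8 of the 99 genes, beside 11 raised by at least 50%. *Tekt1*, a tektin of axonemal microtubules, was at -0.56, 0.23 and -0.03 in testes, -2.19, -2.26 and -2.67 in control ovaries and -1.08, -1.39 and -1.66 in DKO ovaries, which all lay above the control ovaries and reached 44.3% of the testis difference. *Mns1*, needed for the assembly of the flagellum, had testes at 3.48, 3.85 and 3.82, control ovaries at 2.42, 1.96 and 1.45 and DKO ovaries at 3.15, 2.50 and 2.47, also without overlap. *Klc3*, a kinesin light chain of the developing sperm tail, behaved otherwise. For *Klc3*, control testes read 1.76, 2.10 and 2.21, control ovaries read -0.03, 0.02 and -0.02, *Smad4 (Stella)* ovaries read -0.52, 0.00 and -0.25 and DKO ovaries read 0.74, -0.20 and -0.60. Its control ovaries were close to each other, and the DKO mean differed from theirs by -0.01, although DKO ovary 1 was above all of them and the other DKO ovaries below. *Zmynd10*, which helps to assemble dynein arms, was lower in the DKO mean by 0.39, at -4.40, -5.03 and -5.29 against -4.72, -4.41 and -4.44 in control ovaries and -3.81, -2.62 and -2.87 in testes. *Nek5*, a NIMA-related kinase, was at -3.59, -5.29 and -5.59 in DKO ovaries, with DKO ovary 1 close to the testes at -3.47, -2.76 and -3.42 and the others within the control ovaries at -6.68, -5.76 and -5.15. *Arl13a*, related to a small GTPase of cilia, was at -3.80, -3.37 and -3.85 in testes and above background on 1 array in each ovary group.

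Testis isoforms and regulators of later spermatogenesis contributed 3 of the 99 genes and 6 of the others. *Ldhc* encodes the lactate dehydrogenase subunit of spermatocytes and sperm. For *Ldhc*, control testes read 0.80, 1.60 and 1.26, control ovaries read -0.51, -0.94 and -0.45, *Smad4 (Stella)* ovaries read -1.39, -1.21 and -2.09 and DKO ovaries read 0.41, -0.63 and -0.35. DKO ovaries 1 and 3 were above the control ovaries and DKO ovary 2 within their range, whereas all *Smad4 (Stella)* ovaries were below them, by 0.93 ± 0.32 (SE, limma adjusted p = 0.159). *Fabp9*, a fatty acid binding protein of the acrosome, was at -3.16, -2.31 and -2.13 in testes, -5.68, -6.69 and -5.22 in control ovaries and -3.97, -5.25 and -5.38 in DKO ovaries. *Clgn*, a chaperone of the endoplasmic reticulum in spermatogenic cells, had testes at 0.15, 0.96 and 0.47, control ovaries at -0.48, -1.03 and -1.47 and DKO ovaries at 0.22, -1.14 and -0.79, where DKO ovary 1 alone left the control range.

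Among regulators of the cell cycle and of signalling, *Cdkn2b*, an inhibitor of cyclin-dependent kinases that TGF-β induces in many cells, read -0.90, -0.52 and -0.23 in testes, -2.05, -2.41 and -2.50 in control ovaries and -1.39, -2.37 and -2.09 in DKO ovaries, while *Smad4 (Stella)* ovaries read -2.59, -2.70 and -2.67. All *Smad4 (Stella)* ovaries were below the control ovaries, by -0.33 in the mean, and DKO ovary 1 was above them. Such a gap below the control ovaries was seen for 14 of the 99 genes, beside 15.6% of all genes tested, and *Cdkn2b* was not called. *Dgka*, the alpha form of diacylglycerol kinase, varied little among ovaries. For *Dgka*, control testes read 1.95, 2.24 and 2.61, control ovaries read 0.72, 0.69 and 0.55, *Smad4 (Stella)* ovaries read 0.45, 0.42 and 0.58 and DKO ovaries read 0.61, 0.36 and 0.47. The DKO mean was 0.18 below that of the control ovaries, and the testes were 3.06-fold above them. *Fgf21*, a hormone of the FGF family, was the sole gene of the 99 with every DKO array below every control ovary, beside 16.7% of all genes tested, at -6.44, -6.86 and -7.11 against -6.39, -5.66 and -5.40, although on 1 control ovary and 1 DKO array it was not above background. Its testes were at -3.94, -3.88 and -4.02 and its *Smad4 (Stella)* ovaries at -5.80, -6.19 and -6.49. *Enho*, the precursor of adropin, read 2.83, 3.16 and 3.16 in testes, where DKO ovaries read 2.24, 1.71 and 2.24 and control ovaries 1.81, 1.23 and 1.5.

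Transcription factors of development contributed 4 of the 99 genes and 7 of the others, and all were dim in ovaries. *Gsc*, the goosecoid homeobox gene, read -4.06, -2.45 and -3.30 in testes, -6.44, -5.81 and -4.92 in control ovaries and -3.50, -4.76 and -5.51 in DKO ovaries, with DKO ovary 1 within the range of the testes. *Nr2e1*, an orphan nuclear receptor of neural stem cells, was at -4.65, -4.82 and -5.33 in testes, and among ovaries it was above background on DKO ovary 3 alone, at -6.30, -8.28 and -4.77 in the DKO ovaries. *Helt*, a basic helix-loop-helix factor, was at least 2.5-fold above the control ovaries in testes. *Rbpjl*, known from the pancreas, was at -4.46, -4.24 and -4.23 in testes, -5.37, -5.14 and -5.92 in control ovaries and -4.56, -5.93 and -6.46 in DKO ovaries.

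Genes of epithelial junctions and keratins made up 9 of the 99 genes and 9 of the others. *Tmc5*, a transmembrane channel-like gene, was at least 5.66-fold higher in testes, and its DKO arrays were at -5.26, -5.82 and -5.43, 2 of them well above background, whereas 0 control ovary arrays were. *Rab25*, a small GTPase of recycling endosomes in epithelia, read -5.02, -5.72 and -5.67 across DKO ovaries, where 2 arrays were well above background, with the testes at -4.36, -3.64 and -4.17 and all control ovary arrays not well above background. *Krt12*, a keratin of the cornea, had testes at -4.71, -4.22 and -3.70, at least 2.59-fold above the control ovaries, and was well above background on 0 control ovary arrays and 1 DKO array. *Serpinb5*, which encodes maspin, was at least 3.22-fold higher in testes. *Tspan8*, a tetraspanin of epithelia, was at -2.44, -2.91 and -2.84 in control ovaries and -2.58, -3.37 and -2.77 in DKO ovaries, below -1.66, -1.08 and -0.93 in testes. Of 7 markers of mesonephric and other epithelium, 1 was higher and 3 were lower on every testis array than on every control ovary array. On every DKO array *Lhx1* was higher, by 1.54 in the mean, and 0 of the 7 were lower. *Cdh16* read -4.15, -2.84 and 0.62 in control ovaries and -2.14, -2.91 and 1.20 in DKO ovaries. The part of such epithelium in the values was not tested.

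Genes known from neurons and ion channels made up 9 of the 99 genes and 12 of the others. *Apba2*, an adaptor of synaptic vesicle release, was higher on every DKO array, at -2.87, -3.21 and -3.86 against -4.77, -4.55 and -4.43 in control ovaries, which was 45.1% of the way to the testes at -1.75, -1.60 and -1.96. *Ncan*, the proteoglycan neurocan, read -1.21, -0.68 and -1.14 in testes and -2.40, -2.98 and -2.71 in control ovaries, and DKO ovary 1, but not the others, exceeded the control ovaries among -2.0, -3.54 and -3.42. *Kiss1*, the kisspeptin precursor, *Scg3*, a secretogranin, and *Cacng4*, a calcium channel subunit, reached 3.32%, 4.35% and 12.8% of their testis differences of 1.94, 1.91 and 1.89. Of 3 genes of ribosome biogenesis with a testis difference of at least 1, *Rrp12* and *Polr1e*, a subunit of RNA polymerase I, were among the 99 and higher on every DKO array than on any control ovary array. *Polr1e* read -0.78, -0.32 and -0.23 in testes, -1.09, -0.89 and -1.25 across DKO ovaries and -1.53, -1.80 and -1.76 across control ovaries, and for *Rrp12* the testes were at -1.12, -0.46 and -0.24, the DKO ovaries at -2.11, -1.48 and -1.85 and the control ovaries at -2.71, -2.29 and -2.56.

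Y-linked genes are carried by XY gonads, and 2 of the 99 genes are of this kind. *Sly*, of a multicopy family whose copies a probe may not tell apart, was at -1.71, -0.55 and -1.49 in testes, at least 20.1-fold above the control ovaries, and not above background on any ovary array. *Usp9y*, a deubiquitinase gene, was at -4.42, -4.64 and -4.16 in testes and -7.10, -6.13 and -6.98 in control ovaries. On DKO ovary 2 it was read at -4.29, above background and within the range of the testes, against -7.42 and -6.52 on the other DKO arrays, whereas *Sly* was at -8.05 there. By the positions of their probes on mm9, 3 of the 99 genes and 18 of the 153 others lie on the X chromosome, which is 3.03% and 11.8%, beside 3.84% of all genes tested with a mapped probe. Chromosome 8 holds 13 of the 99 genes, 13.1%, and 7 of the 153 others, 4.58%, beside 5.18% of all genes tested with a mapped probe. It was picked because its share of the 99 was the largest of all chromosomes, and it was not tested.

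Some of the genes are known above all from blood cells, vessels and muscle. *Gzma*, a protease of cytotoxic lymphocytes, had testes at -2.70, -2.17 and -2.72 and control ovaries at -6.83, -6.24 and -6.64, at least 8.29-fold lower, with DKO ovaries at -5.71, -7.46 and -7.25. *Ctsw*, another protease of these cells, had testes at -1.98, -1.93 and -1.27, control ovaries at -5.78, -5.12 and -5.58 and DKO ovaries at -4.89, -5.20 and -5.25. Of 4 lymphocyte markers tested out of 6, 0 were higher on every testis array. Their summed linear level ranged from 0.542 to 0.602 in testes, 0.521 to 0.581 in control ovaries and 0.545 to 0.93 in DKO ovaries. *Ptprc* read -0.78 in DKO ovary 1, the highest of all arrays, whereas *Cd3e*, *Lck* and *Nkg7* were not highest there. *Il1r2*, a decoy receptor of interleukin signalling, was at -3.77, -3.98 and -2.92 in testes, -6.23, -7.15 and -5.50 in control ovaries and -5.46, -6.58 and -5.97 in DKO ovaries. *Vwf*, von Willebrand factor of endothelium and platelets, was at 1.31, 1.82 and 1.57 in testes, -2.12, -1.52 and -2.08 in control ovaries and -0.56, -0.90 and -0.93 in DKO ovaries, with no overlap among these groups. The summed level of 6 endothelial markers ranged from 5.36 to 7.15 in testes, 6.74 to 9.90 in control ovaries and 8.47 to 9.51 in DKO ovaries, and on every testis array 3 of the 6 were higher and 1 was lower than on every control ovary array. The lower one was *Kdr*, by -0.87, which is the brightest of the 6 and makes up most of the sum. The higher ones were *Cdh5*, *Pecam1* and *Tie1*, by 0.36, 0.21 and 0.56. The part of these cell types in the values was not tested.

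The muscle genes show how 1 control array can set a value. *Myom2*, of the sarcomere M-band, read 2.25, 1.49 and 2.15 in testes and -4.82, -3.72 and 1.90 in control ovaries, DKO ovaries read -2.21, -2.76 and -3.10 and *Smad4 (Stella)* ovaries -4.84, -3.88 and -3.98, so that control ovary 3 lay within the range of the testes. The summed level of 7 muscle markers was 7.76 at the lowest and 29.1 at the highest in control ovaries, the latter in control ovary 3, and between 5.97 and 9.44 on the arrays of the other groups. Without control ovary 3, the DKO difference of *Myom2* changed from -0.48 to 1.58 and its *Smad4 (Stella)* difference from -2.02 to 0.04, and *Myom2* still met the rule at 25.4%. *Actn2*, an actinin of the Z-disc, and *Cdh15*, the cadherin of muscle, would leave the 99 genes, at 51.8% and 51.1%. Genes outside the muscle group would leave as well, such as *Vstm2l*. In all, the rule kept 99 genes without control ovary 3, of which 91 were the same. These 3 muscle genes are also the ones whose testis and control ovary arrays overlapped, whereas every testis array was above every control ovary array for the other 96 genes, against 29.9% of all genes tested.

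The *Smad4 (Stella)* arrays were not used in choosing the genes, but the control ovary arrays they are compared with were. Within that limit, the comparison asks whether these genes moved when *Smad4* was deleted in germ cells that kept *Stra8*. None of the 99 genes was called, with 0 higher and 0 lower in limma, for which a call needed 1.5-fold at least and an adjusted p under 0.05, where 0.133% and 0.138% of all 18853 genes were called. At an unadjusted p under 0.05, 4 of the 99 genes were higher and 6 lower, beside 8.34% and 11.3% of all genes. The median difference was -0.16 over the 99 genes and -0.02 over all genes tested, and 35 genes were above and 64 below 0. Relative to all genes tested the median was -0.14, both with and without scaling between arrays, and 0.0076 after quantile normalization. With the slide as a block the median of the 99 genes was 0.23, where the slide block joins these groups through the DKO arrays alone. Among the 153 genes raised by at least 50% in DKO ovaries, which share the same control arrays, 5 were called higher and 0 lower, and the median difference was 0.40. Every *Smad4 (Stella)* array was above every control ovary for 3 of the 99 genes, or 3.03%, and for 50 of the 153, or 32.7%, beside 12.5% of all genes, and below every control ovary for 14 and 1 genes, beside 15.6% of all genes. At the split at 50%, a control ovary value that is high by error favours the 99 genes and a low one the 153 others. The shared arrays alone can therefore set the 2 lists apart in this comparison, to an extent that was not tested. A test between these gene lists was not made.

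Several of the smallest p-values belonged to dim genes. *Cd300e*, a receptor of myeloid cells, had the smallest adjusted p, at 0.0785. It was at -6.56, -6.73 and -6.70 in *Smad4 (Stella)* ovaries and -5.25, -5.68 and -5.31 in control ovaries, where no *Smad4 (Stella)* array and 1 control array was above background, a difference of -1.25 ± 0.28 (SE), with -5.26, -5.92 and -6.65 in DKO ovaries and -3.47, -3.64 and -3.74 in testes. It was called when DKO ovary 1 or DKO ovary 3 was left out of the fit (adjusted p = 0.0225 and 0.0338), and *Car6*, a secreted carbonic anhydrase, was called without DKO ovary 1 (adjusted p = 0.0475). With the slide as a block the difference of *Cd300e* was -0.11. The summed level of 6 macrophage markers ranged from 2.36 to 2.76 in *Smad4 (Stella)* ovaries and from 2.51 to 3.30 in control ovaries, and its part in the value of *Cd300e* was not tested. *Oas1d* was 1.42 ± 0.52 higher (adjusted p = 0.18), and *Gpsm3*, a regulator of G protein signalling in leukocytes, 0.46 ± 0.16 higher (adjusted p = 0.167), neither past the threshold. *Cd300e*, *Car6* and *Gpsm3*, like *Cdkn2b* and *Mns1* above, were picked after their values had been seen. The summed level of 5 markers of germ cells of both sexes was 52.1 to 64.5 in control ovaries and 43.4 to 49.9 in *Smad4 (Stella)* ovaries, with 0 of the 5 called. It was 49.2 to 58.8 in DKO ovaries and 24.7 to 30.0 in testes. All 5 were lower on every testis array than on every control ovary array. *Taf7l* and *Rnf17* were also lower on every DKO array, by -1.24 and -1.05 in the mean. *Ddx4*, *Dazl* and *Mov10l1* differed there by 0.14, -0.08 and 0.0059. The sum is thus no count of germ cells, and its part in the differences was not tested.

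**Figure D4:**
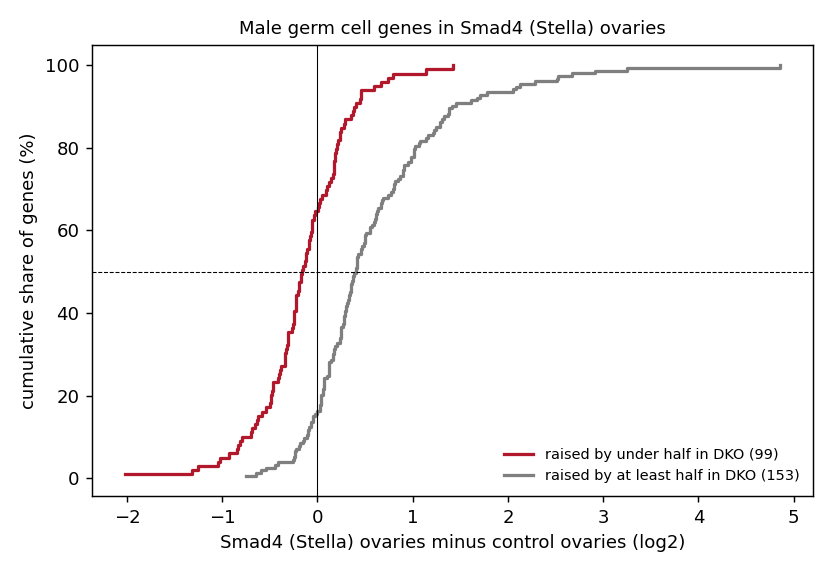
Cumulative share of genes by the log2 difference of *Smad4 (Stella)* from control ovaries, for the 99 genes raised by less than 50% in DKO ovaries (red) and the 153 others (grey). The curves cross the dashed 50% line at medians of -0.16 and 0.40.

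Set against *Smad4 (Stella)* ovaries, which differ from DKO ovaries in *Stra8*, every DKO array was higher for 50 of the 99 genes, or 50.5%, and lower for 0, beside 16.8% and 14.3% of all genes tested. Among the 153 others the count was 143. As the DKO arrays took part in choosing the genes, this is a description and was not tested. Within the slide that holds both groups, DKO ovary 3 was above the mean of the *Smad4 (Stella)* ovaries by a median of 0.47 over the 99 genes. On the slide with DKO ovaries 1 and 2 and control ovaries 2 and 3, the DKO mean was higher by a median of 0.65, and on the slide of the testes and control ovary 1 the testes were higher by a median of 2.32.

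By function, 53 of the 99 genes fell into 12 of 13 groups written from the names in the list, and the shares can be set beside 39.3%, the share of the 99 among the 252 genes with a testis difference of at least 1. The group with 0 of the 99 genes was that of primordial germ cell and pluripotency-associated genes, all 8 of which were raised by at least 50%: *Utf1*, *Dppa2*, *Dppa3*, *Dppa4*, *Sall4*, *Gdf3*, *Tcl1* and *Prame*. Whether these genes rose or were kept from an earlier stage cannot be told from arrays of 1 stage. Core pluripotency and piRNA genes set aside by name are in neither count. The X- and Y-linked testis-restricted genes gave 2 of 10, both Y-linked, and the 8 X-linked ones of this group were raised by at least 50%. The group does not hold all X-linked genes of the list. The 3 X-linked genes among the 99, *1700010D01Rik*, *4933402E13Rik* and *Arl13a*, are outside it. In the cilium group the 99 genes took 8 of 19, in the epithelial group 9 of 18, in the neuronal group 9 of 21, in the leukocyte and blood group 6 of 13 and in the striated muscle group 3 of 4. The groups are small, share arrays with the rule and were not tested.

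**Figure D5:**
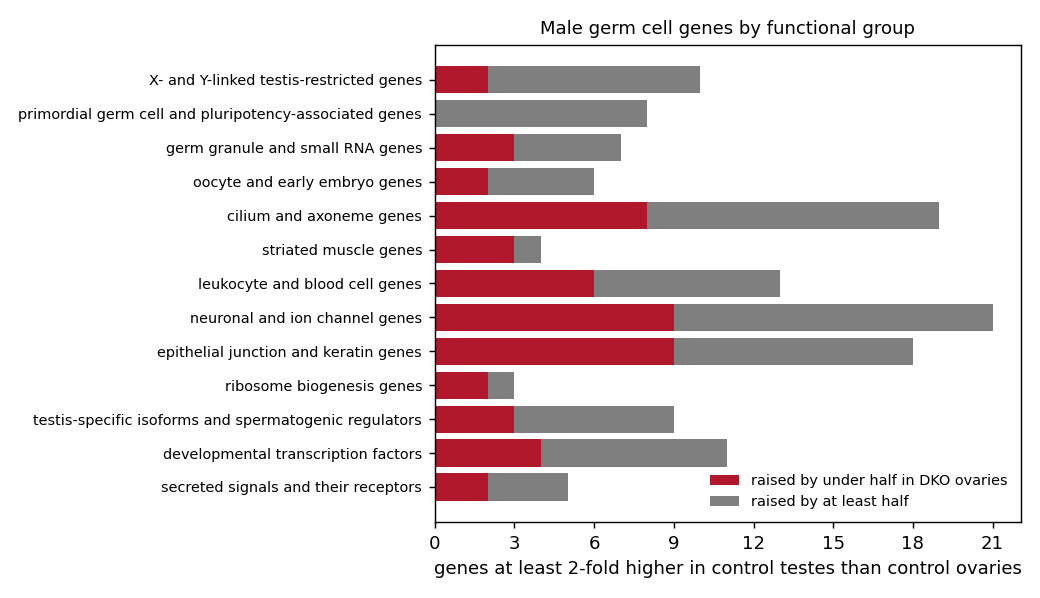
Number of male germ cell genes with a testis difference of at least 1 in each of 13 functional groups, divided into those raised by less than 50% in DKO ovaries (red) and by at least 50% (grey). The primordial germ cell and pluripotency group has 0 red of 8, and the striated muscle group 3 of 4.

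Most of the genes, 81 of 99, were read by 1 probe. Of the 18 with several, 9 had probes that would not all meet the rule alone: *Bcas1*, *Ctdsp2*, *Ddx25*, *Efcab6*, *Epb41l4a*, *Fmn1*, *Mtmr14*, *Mup3* and *Slc35f3*. For *Ctdsp2*, the probes at chr10:126433449-126433508 and chr10:126434239-126434298 (mm9) gave testis differences of 2.93 and 2.64 and DKO differences of 1.23 and 1.14, and the probe at chr10:126436889-126436948 gave 0.12 and -0.09. For *Mtmr14*, the probe at chr6:113204106-113205830 gave a DKO difference of 0.73 and that at chr6:113230999-113231058 one of 0.12. *Mup3* belongs to a family of near-identical genes, a second probe that failed the filter on dim probes gave a testis difference of -0.37 beside 4.76, and its value is uncertain. Both probes of *Vwf* gave like values, with testis differences of 3.47 and 3.48 and DKO differences of 1.12 and 1.11. Whether a probe lies in coding or untranslated sequence was not determined here.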

How the data were processed

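RNA of 12 E14.5 gonad samples was labelled with Cy3 and hybridised by the authors to Agilent Whole Mouse Genome arrays, 1 array per sample. The authors deposited the output of Feature Extraction 11.0.1.1, annotated on mm9, whose processed signal is an intensity corrected for background within the array. A deposited table of intensity held the same signal, with a ratio between 0.995 and 1.005 to it, unscaled.

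From these intensities, levels were computed here on the log2 scale, relative to the 75th percentile of the array without its control spots. Spots marked as outliers were dropped and the rest averaged per probe. Membership used all probes of a gene. Levels and tests used the 27323 of 41174 probes that, in 1 group or more, were well above background on all arrays, which gave 94 of the 99 genes the same value. A RefSeq symbol was matched for 27042 probes, and 12 of 386 listed names were not matched. limma 3.58.1 in R 4.3.3 was fitted to group means of 12 arrays, with Benjamini-Hochberg adjustment over 18853 genes. The fit was tested on simulated data. Tables were made with Python 3.11.15 and pandas 2.3.3.

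Members, lists and groups were chosen with earlier results of these data known. Named genes were the 12 with the largest testis difference, the 5 lowest in DKO among detected genes, those nearest the thresholds, and up to 4 per functional group, all by the averages of the rule. Where no array of a group had a gene well above background, a fold is a lower bound, computed from each array's lowest level well above background. Marker lists of Sertoli, fetal Leydig, pregranulosa, germ, endothelial, macrophage, erythroid, skeletal muscle, epithelial and lymphocyte cells were summed on the linear scale, and 4 of 6 erythroid markers were lower on every DKO than on every control ovary array. Samples were taken as replicates from the labels, so p-values cover the spread between these animals. The 3 arrays per group limit the precision.

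Each of these was tried as an alternative: leaving out single arrays, blocking on slide or on replicate number, the methods' t-test, a fit of the compared groups alone, a 2-fold threshold, no filter on dim probes, the brightest probe, outlier spots kept, normexp correction (offset 50), the deposited table, and quantile normalization.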

Additional observations from a re-analysis of the deposited data

How the results depend on the processing

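The rule kept between 86 and 114 genes when single arrays were left out, the lowest without DKO ovary 3 and the highest without control testis 1 or DKO ovary 1. It kept 98 genes after quantile normalization (95 shared), 86 with the deposited table (82 shared), 101 with the brightest probe (95 shared), 102 with filtered probes (98 shared) and 89 with the slide as a block (75 shared). With normexp background correction it kept 44 (40 shared), and the median testis difference of the 99 genes was 1.12 in place of 2.07 (the cause was not tested). That median was 2.32 with the slide as a block and between 1.99 and 2.27 without single arrays. The median DKO difference was 0.38 to 0.72 without single arrays, lowest without DKO ovary 1, and 0.54 to 0.73 under the other alternatives.

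The median *Smad4 (Stella)* difference was -0.22 to -0.11 without single arrays, but 0.025 after quantile normalization, 0.26 with the deposited table and 0.23 with the slide as a block. Without scaling, the median over all genes was 0.40, so the 99 genes lay 0.14 below it, as with scaling. *Smad4 (Stella)* and control ovaries share no slide, and that block links them through the DKO arrays alone. Of the 99 genes, 0 were called higher without single arrays and 0 to 2 lower. The methods' t-test at an unadjusted p under 0.05 and 1.5-fold called 1 higher (*Khdc3*) and 5 lower (*Rrad*, *Car6*, *Slc35f3*, *Ldhc* and *Cd300e*), and 0 either way after adjustment. The difference of *Slc35f3*, -0.70, was 0.0051 with the slide as a block. *Cd300e* was called without DKO ovary 1 or DKO ovary 3, at the same difference of -1.25.

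Same-numbered arrays did not deviate together, with correlations from -0.18 to 0.15, so the numbers were not taken to pair the samples. With the replicate number as a block, calls among the 99 genes were again 0 in both directions, and the medians stayed at -0.16, 0.55 and 2.07. The depth of the arrays leaves the 6 genes below background in all ovaries unranked.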
